A study of Mus musculus with 191 samples.

Results

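The genes described here encode the proteasome, the barrel-shaped protease that degrades proteins marked with ubiquitin. They were taken by name, as every gene whose symbol starts with Psma, Psmb, Psmc, Psmd or Psme followed by a digit. Psmb8, Psmb9 and pseudogenes were left out. Of 21205 genes in any of 5 tissue tables, 43 met the name rule, and 42 of them had a mean deposited value of at least 1 in at least 1 tissue. Bone marrow kept 42 of its 42 listed genes, gut 40 of 41, liver 39 of 41, lung 41 of 41 and skin 41 of 42. The ones left out were Psme2b in gut (mean 0.567) and liver (0.898), Psma8 in liver (0.618) and Psmb11 in skin (0.475). Just inside it lay Psme2b in skin (1.03) and Psma8 in bone marrow (1.36).

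Proteasomes have a core of stacked rings. The outer alpha rings form a gated channel, and the inner beta rings hold the proteolytic sites. A regulatory cap binds the ends of the core: its ring of ATPases, encoded by the Psmc genes, unfolds substrates, and its non-ATPase subunits, encoded by most Psmd genes, recognise ubiquitin and remove it. Psmd5, Psmd9 and Psmd10 encode chaperones that help to assemble the cap and are not part of the finished particle. Psme1 and Psme2 together form PA28 alpha-beta, an activator induced by interferon, while Psme3 forms the nuclear activator PA28 gamma and Psme4 encodes PA200. Psmb8, Psmb9 and Psmb10 encode beta subunits of the immunoproteasome, which take the places of those encoded by Psmb5, Psmb6 and Psmb7 in immune cells and under interferon. Psma8 and Psmb11 belong to the testis and thymus forms. Psmc3ip entered by its symbol alone and encodes a recombination factor.

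The 4 internal tissues came from wild-type C57BL/6 mice that received 3 µg per g of body weight of control IgG or of anti-Ly6G, an antibody used to deplete neutrophils, on 2 days before collection. Each treatment had 18 libraries per tissue, 3 at each of Zeitgeber time (ZT, hours after lights on) 1, 5, 9, 13, 17 and 21. Ear skin came from 16 mice labelled as wild-type C57BL/6 with diphtheria toxin (DT), from 16 mice labelled Mrp8CRE; iDTR given DT at 10 µg per kg on 2 days, and from 15 mice labelled Mrp8CRE; Bmal1-flox without treatment. Mrp8CRE is a transgene used to drive Cre in neutrophils, iDTR is a Cre-dependent DT receptor, and floxed Bmal1 (symbol Arntl) removes a clock activator. Each skin genotype had 1 mouse per ZT, at 16 ZT from 1 to 24, with none at ZT 16 in Bmal1-flox. Nothing in the labels says which mice were housed in cabinets with inverted light.

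Recovered depth was 7.68 M to 30.9 M counts per library, so that 1 read was worth 0.0319 to 0.131 units of the deposited value. Defining markers of each labelled tissue were abundant, with Alb at 46440 to 83840 in liver, Sftpc at 14460 to 22140 in lung and Krt14 at 3328 to 11240 in skin. Lung and control skin labels were in doubt. In lung, the clock gene Dbp peaked at 3.45 h with IgG and 0.301 h with anti-Ly6G. In gut it peaked at 10.1 and 9.68 h, and in liver at 8.59 and 7.84 h. Lung hours and lung treatments come from the same labels, so both are given as labelled only. Gt(ROSA)26Sor, the locus that carries the DT receptor, was at 0.225 to 1.83 in control skin and 0.242 to 1.53 in iDTR skin, but at 21.0 to 30.2 in Bmal1-flox skin. The wild-type tissues had 15.3 to 26.9 in bone marrow, 23.4 to 39.3 in gut and 5.09 to 9.52 in liver. The control skin libraries thus had as little of this transcript as the iDTR libraries, which the wild-type label does not describe. Anti-Ly6G libraries 1 and 6 of gut carried Svs5, a seminal vesicle gene, at up to 12480 against a median of 0.256. All tissues are mixtures, in which fewer cells of a type and less RNA per cell cannot be told apart.

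By the median of each ring within a tissue, core genes were more abundant than cap genes, while single genes of core and cap overlapped. Deposited values were divided by transcript length, and control groups (IgG, or control skin) were used. The median of 7 alpha ring genes was between 60.5 per kb in liver and 94.9 per kb in bone marrow, and that of 7 beta ring genes was between 70.8 in lung and 107.6 in skin. The 6 ATPase genes had medians of 46.1 per kb in liver to 73.1 in skin, and the 11 non-ATPase genes had 35.8 in liver to 57.1 in skin. Per kb, Psma2 was the lowest alpha ring gene and Psmc6 the lowest ATPase gene in each of the 5 tissues. Psmd11 was the lowest non-ATPase gene in 4 of them, with Psmd14 in liver. Such orders depend on the transcript length used for each gene, which was the same in every tissue. Psma2 (2911 bases) and Psmc6 (2234 bases) had the longest transcripts of their rings. Before division, Psma2 had a mean of 110.1 over all bone marrow libraries. That was above Psma4 (107.8), Psma6 (104.7) and Psma5 (82.8), and below Psma1, Psma3 and Psma7. The tables were normalized separately, so levels are ordered here within tissues. Psmd5, Psmd9 and Psmd10, the assembly chaperones, stood at 16.9 to 21.3 per kb in bone marrow and 7.12 to 17.3 in the other tissues, below the median of each ring.

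The balance between immunoproteasome genes and their constitutive counterparts differed between tissues. The ratio of Psmb8 to Psmb5, both per kb and within the same library, had a median of 0.648 in bone marrow (range 0.554 to 0.812, n = 18), 0.576 in lung (0.452 to 0.715), 0.264 in gut (0.181 to 0.667), 0.207 in liver (0.155 to 0.329) and 0.0918 in control skin (0.0675 to 0.123, n = 16). Psmb9 to Psmb6 followed the same order of medians, from 0.366 in bone marrow and 0.269 in lung to 0.146 in gut, 0.0781 in liver and 0.0473 in skin. The ranges of skin lay below those of bone marrow and lung for both pairs. With IgG, gut and liver overlapped for Psmb8 and narrowly did not for Psmb9, where the lowest gut library was at 0.113 and the highest liver library at 0.111. With anti-Ly6G they overlapped for Psmb9 too (lowest gut library 0.114, highest liver library 0.122). Psmb10 to Psmb7 was ordered differently, with 1.01 in gut (0.830 to 1.37), 0.732 in lung (0.550 to 0.929), 0.353 in bone marrow (0.284 to 0.420), 0.206 in liver (0.148 to 0.302) and 0.0829 in skin (0.0679 to 0.0968). In gut, Psmb10 was thus as abundant per kb as the subunit gene whose place its product takes, while Psmb8 was well below Psmb5. Gut overlapped lung at the edges and stood above bone marrow without overlap.

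**Figure D1:**
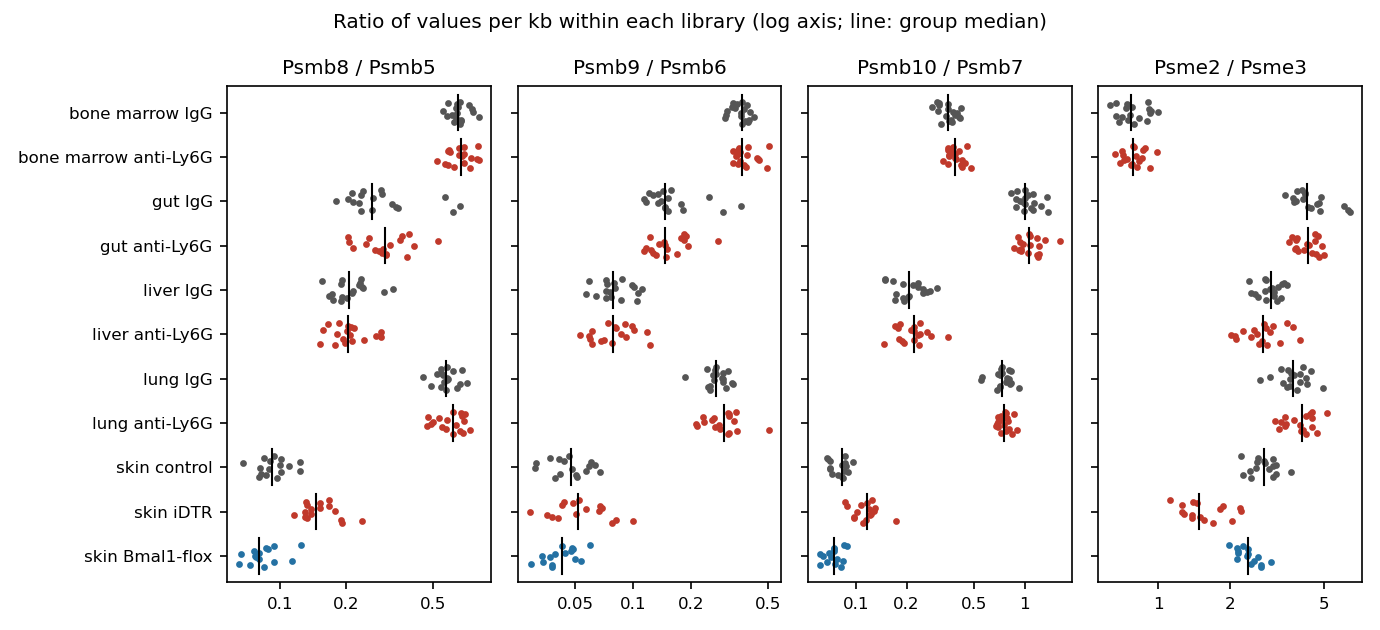
Ratios of deposited values per kb within each library (log axes), for 3 immunoproteasome genes over their constitutive counterparts and for Psme2 over Psme3. Each point is 1 library and the line marks the group median: bone marrow and lung are highest for Psmb8 and Psmb9, gut is highest for Psmb10, and bone marrow is lowest for Psme2 over Psme3 (median 0.769).

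The activators differed between tissues as well. In bone marrow Psme3 was at 104 ± 8.13 per kb (SD, n = 18) and ranked 5 of 41 proteasome genes, whereas in gut, liver, lung and skin it ranked 32 to 34 with 19.7 to 37.1 per kb. Psme2 over Psme3 had a median of 0.769 in bone marrow (0.627 to 1.00), against 4.21 in gut, 3.68 in lung, 2.98 in liver and 2.80 in control skin. None of the bone marrow libraries reached the lowest library of any of those tissues, which was at 2.23 in skin. Psme1 over Psme3 gave 0.949 in bone marrow and 2.20 to 4.69 elsewhere. Psme4 over Psme3 was 0.195 in bone marrow, 0.567 to 0.632 in skin, lung and gut, and 1.08 in liver. Psme1 over Psme2 stayed between 0.721 in gut and 1.26 in lung. In gut, liver, lung and skin the partners of PA28 alpha-beta thus differed less from each other than from Psme3. In bone marrow Psme1 over Psme2 was at 1.205, so there Psme1 was nearer to Psme3 (0.949) than to Psme2. Psme2b is a near-identical copy of Psme2, and its values, 0.651 in gut IgG to 10.5 in bone marrow IgG, are uncertain because reads of the copies can be split. Psma8, the testis form, was at 1.37 ± 0.578 in bone marrow IgG (n = 18), with a ratio per kb to Psma7 of 0.00566.

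The first comparison asked what anti-Ly6G did to proteasome transcripts in bone marrow, the organ where neutrophils are made. In a limma fit with ZT as a factor and Benjamini-Hochberg adjustment over all 14289 genes, 10 of 42 genes fell and 0 rose. Among all genes 7.16% fell and 9.95% rose. All changes were small: the median over the 42 was -0.05 on log2(value + 1), against -0.0045 over all genes, and 36 of 42 differences were negative. Psmd6, a lid subunit, was at 80.6, 86.8 and 100.8 (lowest, median and highest of 18 libraries) with IgG and 72.2, 79.2 and 89.9 with anti-Ly6G. It fell by 0.14 (SE 0.0335, adjusted p = 0.00411), was lower at 6 of 6 ZT, and in 11 of 18 libraries lay below every IgG library. Psmc6, an ATPase, went from 110.2 ± 10.1 to 99.1 ± 10.1 (SD, n = 18 each) and fell by 0.15 (adjusted p = 0.00907). Psme4 fell by 0.09 from 132 ± 7.32 (adjusted p = 0.0198), and Psmd5, an assembly chaperone, by 0.12 (adjusted p = 0.0265). Psma3 and Psmd9 each fell by 0.11 (adjusted p = 0.0353 and 0.0385). Psma5, Psmb7, Psmd12 and Psmc3ip completed the 10. In all 10 the 2 groups overlapped.

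The fallen genes were 2 alpha ring, 1 beta ring, 1 ATPase and 2 non-ATPase genes, 2 assembly chaperones, Psme4 and Psmc3ip. Outside the rule, 1 of 6 core assembly factors fell (Psmg2, -0.14, adjusted p = 0.0143), as did 1 of 7 cap partners (Txnl1, -0.13, adjusted p = 0.0126). Among 5 genes of proteasome transcription, Ddi2, a protease that activates the factor NRF1, rose by 0.09 and Ngly1, a deglycosylase that acts on it, fell by 0.10 (adjusted p = 0.0290 and 0.0286). The count of 10 depended on the hours included: leaving out ZT 1 gave 1, ZT 13 gave 3, ZT 9 gave 4 and ZT 21 gave 6, with Psmd6 past the threshold in each. Beside it, 1 of 6 markers of dividing cells fell (median -0.08), 2 of 9 neutrophil markers rose and 1 fell (median 0.11), and the summed neutrophil markers were at 18140 to 28040 with IgG and 19240 to 36560 with anti-Ly6G. Ly6g, the gene of the antibody's target, was at 104.5 ± 10.6 and 118 ± 18.6 and rose by 0.16 (adjusted p = 0.0498). Of 4 bone marrow markers, Mpo and Elane, genes of neutrophil precursors, rose by 0.51 and 0.49, Vpreb1, a gene of B cell precursors, fell by 0.42, and Hba-a1, a globin gene of red cells, did not pass (-0.19, adjusted p = 0.0899). Their part in the result was not tested.

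In gut, liver and lung no proteasome gene passed the test for anti-Ly6G against IgG, with counts of 0 of 40, 0 of 39 and 0 of 41 in that order. The share called among all genes, either direction, was 0.0132% in gut, 1.4% in liver and 0% in lung. With the lung labels in doubt, the lung values describe the labelled groups and may not describe the antibody. At an unadjusted p under 0.05 in limma, 2 proteasome genes were found in gut, 1 in liver and 1 in lung. In gut, 911 of all 15158 genes were higher and 1021 lower at that level. Liver had 871 and 824 of 12504, and lung 620 and 842 of 15641. The smallest p in gut belonged to Psme4, at 117 ± 6.98 with IgG and 110.4 ± 7.70 with anti-Ly6G (difference -0.08, adjusted p = 0.175), followed by Psmd4 (0.05, adjusted p = 0.349) and Psmb6 (0.05, adjusted p = 0.440). In liver they belonged to Psmc5 (0.07, adjusted p = 0.303), Psme3 (0.06, adjusted p = 0.423) and Psmd10 (-0.10, adjusted p = 0.456). In lung they belonged to Psmd14, at 33.7, 37.6 and 45.3 (lowest, median, highest) with IgG and 35.2, 41.1 and 47.4 with anti-Ly6G (0.12, adjusted p = 0.355, higher at 6 of 6 ZT), Psme2 (0.08, adjusted p = 0.635) and Psmc3 (0.04, adjusted p = 0.717). No difference in these 3 tissues was larger than 0.12 in size. Of the related genes outside the rule, Gbp2, an interferon-induced GTPase, rose by 0.50 in liver (adjusted p = 0.0300).

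The daily course of these genes was examined tissue by tissue. Rhythms were tested with a 24 h cosine and sine in each group, and a peak is the fitted hour. With IgG, 24 of 40 proteasome genes were rhythmic in gut, where 33.6% of all genes were. In liver 16 of 39 were rhythmic, where 42.9% of all genes were, a count close to that background. In lung 1 of 41 was rhythmic (11.2% of all genes), and in bone marrow 0 of 42 (1.62%). With anti-Ly6G the counts were 14 of 40 in gut (24.6%), 19 of 39 in liver (34.7%), 0 of 41 in lung (12.7%) and 0 of 42 in bone marrow (0.406%). At an unadjusted p under 0.05 in limma there were 8 in lung with anti-Ly6G, and 1 and 4 in bone marrow with IgG and anti-Ly6G. Psmd3, a cap subunit and the 1 rhythmic gene of lung, had a peak-to-trough fold of 1.13, and its call was lost when any of ZT 1, 9, 13 or 21 was left out.

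**Figure D2:**
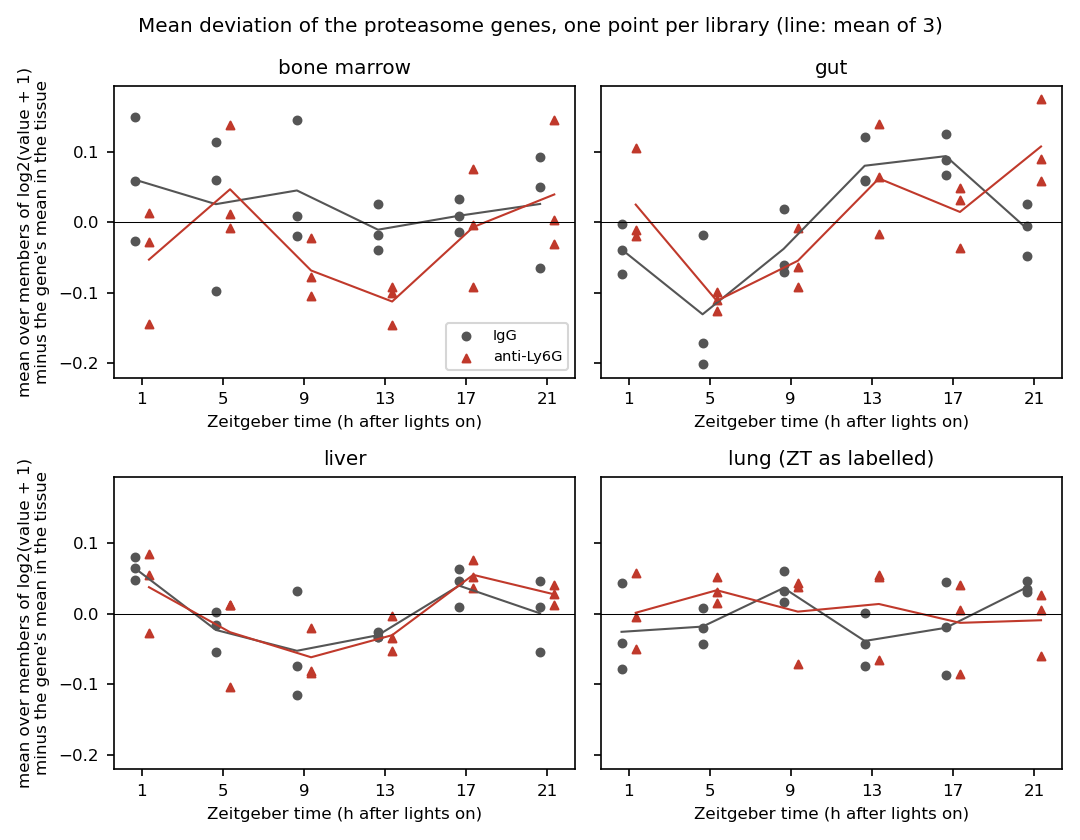
Mean over the tested proteasome genes of log2(value + 1) minus each gene's mean in the tissue, against Zeitgeber time, with 1 point per library and a line through the mean of 3. In gut both groups are low at ZT 5 (means -0.13 and -0.11), and the highest mean is at ZT 17 with IgG (0.09) and at ZT 21 with anti-Ly6G (0.11).

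Gut proteasome genes moved together in the early night. Over all 40, rhythmic or not, 33 had their fitted peak between 12 and 18 h with IgG. The 24 rhythmic ones peaked at 16.3 h on average with a concentration of 0.944, on a scale where 1 is a shared hour and 0 an even spread, against 0.0449 for all rhythmic genes of gut. Within 3 h of that mean, a window set by the 24 themselves, lay 35 of the 40 fitted peaks and 27.5% of those of all genes. The 24 had peak-to-trough folds of 1.12 to 1.33 with a median of 1.21, below the 1.31 of all rhythmic genes. Called genes included 4 of 7 alpha ring, 6 of 7 beta ring, 5 of 6 ATPase and 7 of 11 non-ATPase genes, with Psmd5 and Psme3. Psmc4, an ATPase, spanned 52.5, 67.1 and 81.7 (lowest, median and highest of 18). Its libraries were at 52.5, 53.0 and 66.1 at ZT 5 and at 73.0, 78.0 and 81.7 at ZT 17, with no overlap between these hours. It peaked at 16.6 h with a fold of 1.32 (adjusted p = 0.000359). Psmc5 peaked at 15.7 h with 1.28, Psmd5 at 17.1 h with 1.28 and Psmd11, a scaffold subunit of the lid, at 17.1 h with 1.27. For Psmd11 the ZT 5 libraries were at 56.8 to 61.8 and the ZT 17 libraries at 76.2 to 80.2. Psme3 had the largest fold of the 24, 1.33 at 17.4 h, and Psmc6 the smallest, 1.12 at 17.9 h.

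With anti-Ly6G the gut peaks lay later. Of the 40 genes, 26 now peaked between 18 and 24 h, and the 14 rhythmic ones peaked at 19.7 h on average with a concentration of 0.943. Within 3 h of that mean, a window set by the 14 themselves, lay 32 of the 40 fitted peaks and 24.7% of those of all genes. Psmd6 peaked at 18.3 h, Psma3 at 19.3 h, Psmd11 at 20.1 h and Psmb2 at 20.3 h, with folds of 1.17 to 1.26. Psmc3ip, a gene with a mean of only 2.60 in gut, had the largest fold, 1.67 at 20.3 h. Psmd6 libraries were at 42.6 to 56.7 at ZT 5 and at 62.2 to 64.4 at ZT 21. The rhythmic sets shared 11 genes, 45.8% of the IgG set and 78.6% of the anti-Ly6G set. All 11 peaked later with anti-Ly6G, by 0.96 to 3.78 h with a median of 1.8 h. Without anti-Ly6G libraries 1 and 6 the median shift was 2.07 h, again in 11 of 11, and with any 1 ZT left out it was 0.81 to 3.16 h in 9 to 11 of 11. The smallest, 0.81 h in 9 of 11, was without ZT 21, where the mean deviation was -0.01 with IgG and 0.11 with anti-Ly6G. The 3 IgG libraries of that hour are labelled gut and IgG but carry "bm" in their titles, where those of other hours carry "co", and what this marks is not stated. Vil1, a gene of gut epithelium, was at 596 to 819 over all gut libraries, these 3 included. Over the same libraries Dbp peaked at 10.1 h with IgG and 9.68 h with anti-Ly6G, so this gene peaked no later with anti-Ly6G. These shifts are a description, since the test of the difference in rhythm called 0 of 40 (0% of all genes), with 6 at an unadjusted p under 0.05. Psma6 and Psmc5 were nearest (adjusted p = 0.677 and 0.725). The gut counts depended on single hours: they were 12 and 8 without ZT 5, 13 with IgG without ZT 17, and 8 and 9 with anti-Ly6G without ZT 9 or ZT 21. All 6 markers of dividing cells were rhythmic in both gut groups, between 0.818 and 2.74 h with IgG and between 0.535 and 1.99 h with anti-Ly6G, and their part in these rhythms was not tested.

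In liver the peaks were more scattered than in gut and some genes swung further. The 16 rhythmic genes of the IgG group peaked at 22.4 h on average with a concentration of 0.595, and the 19 of the anti-Ly6G group at 20.7 h with 0.613. Their median folds were 1.26 and 1.25, below the 1.44 and 1.415 of all rhythmic genes of liver. Psmd11 had the largest swing among late-night genes. Its libraries with IgG spanned 61.6, 90.2 and 121.5 (lowest, median, highest), were at 61.6, 76.9 and 81.4 at ZT 9, and were at 111.5, 114.4 and 121.5 at ZT 1. The fold was 1.59 with a peak at 23.8 h (adjusted p = 2.9e-07), and with anti-Ly6G 1.40 at 22.5 h. Psma5, an alpha ring gene, peaked at 2.97 h with a fold of 1.41, and its libraries at ZT 13 (38.0 to 39.3) lay below all those at ZT 1 (52.8 to 54.8). Psmc2 peaked at 22.8 h and Psmd14, the deubiquitinase of the cap, at 21.7 h. With anti-Ly6G Psmd14 peaked at 21.2 h, Psmd4, a ubiquitin receptor, at 22.3 h and Psmc2 at 20.1 h. The rhythmic sets shared 14 genes (87.5% and 73.7%), of which 1 peaked later with anti-Ly6G, with a median shift of -1.25 h. Between gut and liver with IgG, 9 rhythmic genes were shared (37.5% and 56.2%). The difference in rhythm called 0 of 39 in liver (0.008% of all genes; 5 at an unadjusted p under 0.05; smallest adjusted p 0.421 for Psmd3 and 0.433 for Psmd10).

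A few liver genes peaked at another time of day, and their promoters are shown for that reason. Psmb10, the immunoproteasome subunit, spanned 17.3, 24.5 and 35.0 with IgG. It was at 17.3 to 20.5 at ZT 1 and 28.7 to 32.7 at ZT 13, the reverse of Psmd11. Its fold was 1.61 at 11.3 h with IgG (adjusted p = 0.000155) and 1.38 at 10.9 h with anti-Ly6G (adjusted p = 0.0129, lost without ZT 13). Psme3 was at 43.3 to 45.1 at ZT 5 and 55.6 to 64.1 at ZT 13 with IgG, and peaked at 15.7 h (fold 1.26), and at 13.1 h with anti-Ly6G (fold 1.27). Psmd9, a cap chaperone, was called with anti-Ly6G, at 10.6 h with a fold of 1.26 (adjusted p = 0.0266), and with IgG its fitted peak was at 10.8 h without passing (fold 1.15, adjusted p = 0.238). The other 14 rhythmic genes with IgG peaked between 17.3 and 3.58 h. Psmb8, which the rule left out, peaked at 11.2 h with IgG (fold 1.35, adjusted p = 0.0172), and Psmb9 did not pass. With anti-Ly6G 0 of these 2 genes were rhythmic, with fitted peaks of 1.87 and 13.8 h. The call of Psme3 was lost without ZT 5 with IgG and without ZT 13 with anti-Ly6G, and that of Psmd9 without ZT 1, 9 or 17.

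Promoter sequence was read from RefSeq (GRCm38.p6) for 36 of the 43 genes, over 250 bases before the start. The E-box CACGTG, the core letters bound by CLOCK and BMAL1, was in 4 of 36 (11.1%), against 6.86% of 27025 genes with a promoter entry. It reads the same on both strands. Those 4 genes were Psmb10, Psme3, Psmd9 and Psma4. The first 3 are the liver genes described above with peaks of 10.6 to 15.7 h, while Psma4 was not rhythmic in liver (adjusted p = 0.279 with IgG and 0.775 with anti-Ly6G). In gut with IgG, Psme3 and Psma4 were among the 24 rhythmic genes, which peaked at 16.3 h on average. Psmb10 and Psmd9 were not called there. The motif was looked up with the peak hours known, so this is a description and no test. Shown 5′ to 3′ are 120 bases of each promoter, with the E-box in capitals. They run from 120 to 1 bases before the start for Psme3 and Psmd9, from 173 to 54 for Psmb10 and from 197 to 78 for Psma4:
Psmb10, chr8:105938446-105938565, strand -: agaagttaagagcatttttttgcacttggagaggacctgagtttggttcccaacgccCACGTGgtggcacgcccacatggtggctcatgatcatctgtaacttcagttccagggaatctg
Psme3, chr11:101316093-101316212, strand +: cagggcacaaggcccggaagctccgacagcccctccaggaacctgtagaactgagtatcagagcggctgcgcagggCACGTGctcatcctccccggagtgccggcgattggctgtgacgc
Psmd9, chr5:123228070-123228189, strand +: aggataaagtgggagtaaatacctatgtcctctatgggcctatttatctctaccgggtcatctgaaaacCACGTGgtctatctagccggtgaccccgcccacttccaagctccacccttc
Psma4, chr9:54950662-54950781, strand +: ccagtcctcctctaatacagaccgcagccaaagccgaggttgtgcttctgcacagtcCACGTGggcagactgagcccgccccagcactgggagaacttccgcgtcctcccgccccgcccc

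The E-box started 116 bases before the start in Psmb10, 44 in Psme3, 51 in Psmd9 and 140 in Psma4. Other motifs were searched on both strands. The D-box TTATGNAA was in 0 of 36 (3.63% of all), the antioxidant response core TGACNNNGC in 5 (13.9% against 11.5%), and the ETS site CCGGAAG in 12 (33.3% against 7.83%). The core of the interferon-stimulated element was in 3 (8.33%), namely Psmb3, Psmd4 and Psmd9, and in 936 of 27025 genes overall. An ETS site was in the promoters of Psmc1, Psmc2 and Psmc6 among the ATPase genes and of Psmd2, Psmd4, Psmd6, Psmd11 and Psmd12 among the non-ATPase genes. Psma6, Psme3, Psme4 and Psmc3ip held the rest.

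In ear skin, iDTR mice given DT were set against control mice, with a common 24 h wave in the fit. Here the proteasome genes changed most: 26 of 41 rose and 3 fell, with a median of 0.14 on log2(value + 1) against -0.02 over all genes. The libraries differed throughout, since 30.6% of all genes rose and 32.4% fell. Cap genes carried the rise. All 6 ATPase genes rose (median 0.22), as did 10 of 11 non-ATPase genes (median 0.21), with Psmd8 the exception. Of the core, 3 of 7 alpha ring genes rose and 1 fell (median 0.06), and 2 of 7 beta ring genes rose (median 0.07). Among activators, Psme3 rose while Psme1 and Psme2 fell, and 2 of 3 assembly chaperones rose. The difference between cap and core was not itself tested.

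**Figure D3:**
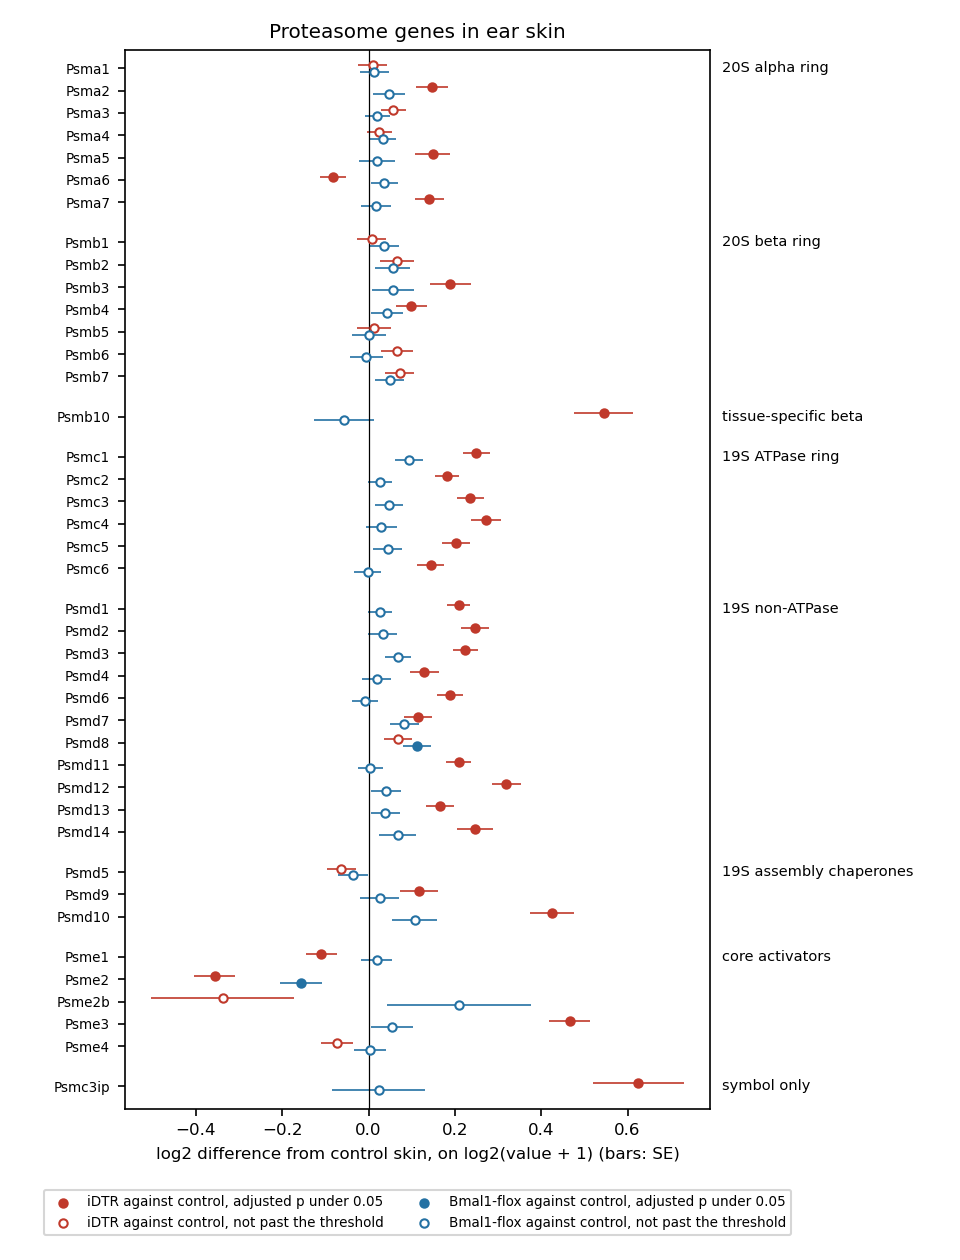
Difference from control skin of each tested proteasome gene on log2(value + 1), with bars of 1 SE, for iDTR (red) and Bmal1-flox (blue), grouped by role. Filled points passed an adjusted p of 0.05: ATPase and non-ATPase genes lie to the right of 0 in iDTR, and Psme2 lies to the left in both, at -0.36 and -0.16.

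Psme3, on chromosome 11 at 101316213 to 101323537 (GRCm38, plus strand), was at 77.7, 101.4 and 110.1 in the 16 control libraries (lowest, median, highest) and at 108, 140.5 and 169 in iDTR. In 15 of 16 iDTR libraries it lay above every control. The difference was 0.47 (SE 0.0473, adjusted p = 5.2e-12). Psmd12, a lid subunit, was at 67.0, 74.1 and 83.9 in control and 79.2, 90.9 and 110 in iDTR, and rose by 0.32 at 16 of 16 ZT (adjusted p = 1.9e-11). Psmd10, the chaperone also known as gankyrin, went from 14.3 ± 1.56 to 19.5 ± 2.02 (SD, n = 16 each) and rose by 0.42 (adjusted p = 6.9e-10). Psmb10 was at 9.12, 11.5 and 13.1 in control and 13.8, 16.2 and 26.9 in iDTR, and the groups did not overlap (difference 0.55, SE 0.0680, adjusted p = 1.6e-09). Psmc1 and Psmd1 rose by 0.25 and 0.21 (adjusted p = 2.1e-09 and 2.7e-09). Psmc4, Psmd14 and Psmd2 each rose by 0.25 to 0.27, and Psmc6, the least changed ATPase gene, went from 104.5 ± 5.62 to 116 ± 8.85 (0.14). Of the core, Psma2, Psma5 and Psma7 rose by 0.14 to 0.15, Psmb3 by 0.19 and Psmb4 by 0.10, while Psma1 (0.01), Psmb1 (0.01) and Psmb5 (0.01) did not pass. Psme2 fell at 16 of 16 ZT, from 87.8, 97.7 and 110 in control to 66.4, 73.5 and 95.2 in iDTR (difference -0.36, SE 0.0471, adjusted p = 6.7e-09), with 12 libraries below every control. Psme1 and Psma6 fell by 0.11 and 0.08. The ratio of Psme2 to Psme3 per kb therefore had a median of 1.48 in iDTR (1.12 to 2.23), against 2.80 in control (2.23 to 3.60). Psmb8 to Psmb5 was 0.145 against 0.0918.

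Genes outside the rule moved in the same libraries. Psmb8 rose by 0.69 (adjusted p = 2.2e-10), and Psmb9, at 7.84 ± 1.71 in control and 9.68 ± 3.35 in iDTR, did not pass (0.23, adjusted p = 0.0737). All 7 peptide loading and interferon genes rose (Irf1, an interferon response factor, by 1.21 and Tapbp by 0.29). Cap partners with other symbols gave 6 higher and 1 lower of 7, with Usp14, a deubiquitinase of the cap, at 0.38 and Ecpas, an adaptor also known as ECM29, at -0.31. Core assembly factors gave 4 of 6 higher (Psmg2 0.23, Psmg4 0.25), and ubiquitin and its activating enzymes 4 of 6 (Uba1 0.38, Uba6 0.25). Of 9 shuttles and unfoldase genes, 4 rose and 2 fell (Ubqln4 0.34, Rad23b 0.32). Of the 5 genes of proteasome transcription, Nfe2l2, which encodes NRF2, rose by 0.36, and Ngly1 and Nfe2l1, which encodes NRF1, each fell by 0.18.

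Markers of dividing cells rose with the proteasome genes in iDTR skin: 6 of 6 were higher, with a median of 1.09, and their summed value was 192 to 318 in control and 265 to 973 in iDTR. Of 4 skin markers, the basal keratinocyte keratins Krt14 and Krt5 rose by 0.98 and 0.73, Lor, a gene of cornified cells, fell by 0.17, and Krt10 did not pass (0.19, adjusted p = 0.220). The 4 of 9 neutrophil markers that passed the filter on low values rose, with a median of 1.02 and sums of 15.7 to 41.3 in control and 32.1 to 120 in iDTR. In 11 of 16 iDTR libraries the dividing-cell sum exceeded every control, and the mean proteasome deviation exceeded every control in 9 of these 11. In the other 5, at ZT 4, 5, 7, 9 and 12, it did so in 0. That comparison rests on 1 control library: the highest control deviations were 0.0583 at ZT 24 and -0.00536 at ZT 13. The iDTR library at ZT 19, among the 9, was at 0.0585, and those at ZT 4, 5, 7, 9 and 12 were at -0.043 to 0.038. A fit to these 5 hours alone, chosen from the dividing-cell sums after the data were seen, called 14 of 40 higher and 7 lower (21.7% and 21.5% of all genes), with a median of 0.08. There, 4 of 6 ATPase and 6 of 11 non-ATPase genes were higher, 0 alpha ring genes were higher and 2 lower, and 0 beta ring genes were higher and 1 lower. Psme3 (0.57), Psmb10 (0.49) and Psmd12 (0.25) remained higher and Psme2 (-0.46) lower, and Psmb4 changed sign, from 0.10 to -0.10 (adjusted p = 0.105). In these 5 iDTR libraries Krt14 was at 5729 to 7656, above every control (highest 4903). The part of dividing cells and of these keratinocyte genes in the differences, at 5 or at 16 hours, was not tested.

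**Figure D4:**
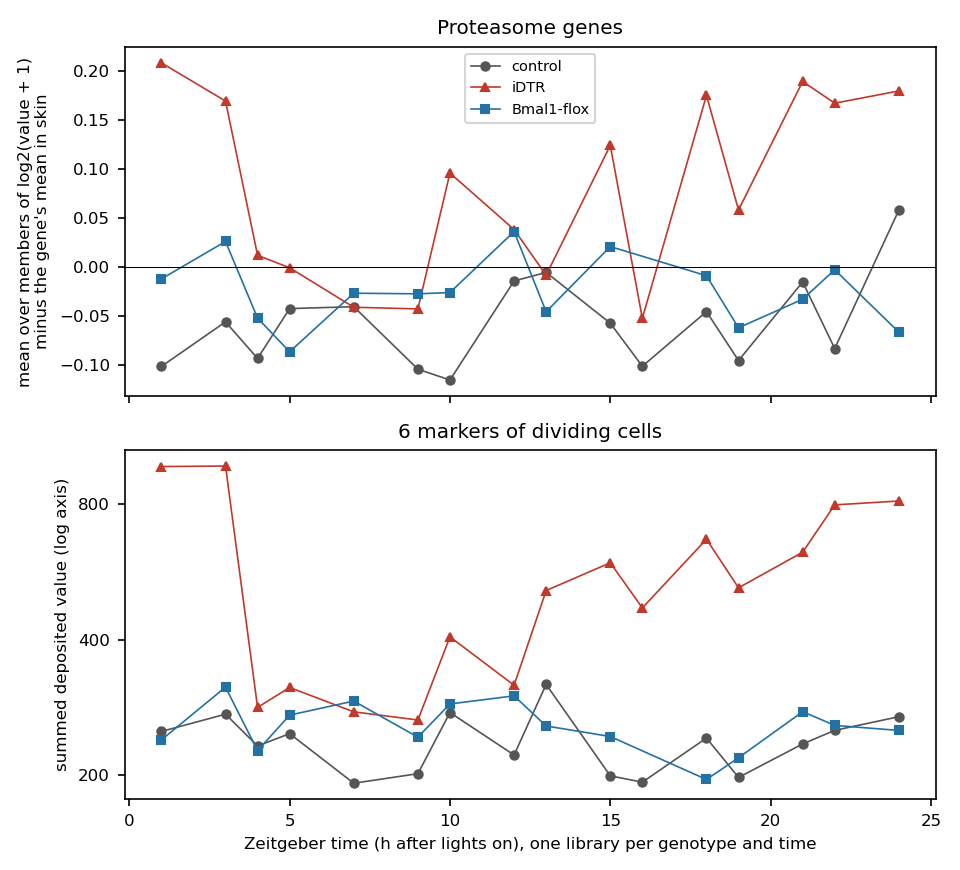
Upper panel, mean deviation of the proteasome genes in each skin library against Zeitgeber time. Lower panel, summed value of 6 markers of dividing cells (log axis): at ZT 4, 5, 7, 9 and 12 the iDTR libraries lie within the control range in both panels, and at ZT 13 and 16 only the lower panel is above it, with proteasome means of -0.01 and -0.05.

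In iDTR skin 5 of 41 proteasome genes were rhythmic (10.9% of all genes), a share close to that background: Psma1, Psmb1, Psmb4, Psmb6 and Psmc3. They peaked at 22.0 h on average with folds of 1.16 to 1.21, and 34 of all 41 genes had a fitted peak between 18 and 24 h. All rhythmic genes of iDTR skin peaked at 20.6 h on average, 51.6% of them within 3 h of the mean of the 5. Rhythmic or not, 37 of the 41 fitted peaks lay in that window, which the 5 themselves set, and 31.7% of those of all genes. Psma1, an alpha ring gene, had a median of 110.0 and a range of 95.2 to 127.5 over the 16 libraries and peaked at 22.0 h (adjusted p = 0.00359). The 6 markers of dividing cells were all rhythmic with peaks of 21.2 to 22.1 h, in the same hours, and their part was not tested. With 1 window of hours left out, 1 to 4 genes were rhythmic. No gene was rhythmic in control skin (0.383% of all genes, 0 at an unadjusted p under 0.05) or in Bmal1-flox skin (0.326%, 1 at an unadjusted p under 0.05). The difference in rhythm between iDTR and control called 0 of 41 (0.144% of all genes). In all, 9 genes had an unadjusted p under 0.05, led by Psmb4 and Psmb1 (adjusted p = 0.149 and 0.164).

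In Bmal1-flox skin most proteasome genes differed little from control, with a small lean to higher values. The control mice had received DT and the Bmal1-flox mice had not, and the genotype label of control skin was in doubt. Differences between these groups therefore cannot be assigned to the Bmal1-flox genotype rather than to DT or to the control genotype. Of 41 genes 1 rose and 1 fell, where 2.41% and 3.21% of all genes did. The median over the 41 was 0.03 on log2(value + 1), against 0.0005 over all genes. Differences were positive in 35 of 41, and in 50.2% of all genes. At an unadjusted p under 0.05 in limma there were 5 higher and 1 lower, beside 1471 and 1480 of all 15946 genes. Psmd8, a cap subunit, was at 159, 174 and 195 in control (lowest, median, highest) and 172, 188 and 209 in Bmal1-flox (difference 0.11, SE 0.0329, adjusted p = 0.0302, higher at 12 of 15 ZT). Psme2 was at 77.3, 88.8 and 99.3 against 87.8, 97.7 and 110 (difference -0.16, adjusted p = 0.0409, lower at 12 of 15 ZT). In both cases the groups overlapped. Both calls were lost without ZT 1 to 5 and without ZT 7 to 12, 1 was kept without ZT 19 to 24, and the fit to ZT 4, 5, 7, 9 and 12 called 0. These comparisons share the control libraries with iDTR, so the like direction of Psme2 is not a repeat. Outside the rule, Nfe2l2 rose by 0.14 (adjusted p = 0.00624). A Bmal1-flox library at ZT 4 carried Alb, a liver gene, at 1182. Differences in rhythm were called for 0 of 41 in Bmal1-flox (0% of all genes), 0 of 42 in bone marrow (0.007%) and 0 of 41 in lung (0.0511%). At an unadjusted p under 0.05 there were 0, 2 and 0, and the smallest adjusted p was 0.999 for Psmb6 and Psmd8 in Bmal1-flox, 0.9995 for Psmb10 and Psmc1 in bone marrow, and 0.549 for Psmd3 and 0.552 for Psme2b in lung.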

How the data were processed

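RNA sequencing of total RNA was made from 50 nt single reads, per the labels' protocols. The submitters' processing notes name cutadapt 1.7.1, RSEM 1.7.1 and limma 3.46 with mm10, and the labels' extraction protocol names another RSEM release and Kallisto. The deposited values are a normalized signal: in each column they behaved like RSEM counts, with 0.5 added, scaled to a library size as CPM are. The authors' normalization method, gene filter and strand setting are not given in the sources used here. Groups came from the labels. Where no label says more, p-values measure the spread between these samples.

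Values were taken as log2(value + 1), and genes with a mean of at least 1 in a tissue were fitted with limma 3.58.1 (R 4.3.3), with variances moderated along a trend. P-values are two-sided and were adjusted by Benjamini and Hochberg's method over every gene fitted in a tissue, with a threshold of 0.05. Effects were adjusted for ZT as a factor in 4 tissues and for a 24 h wave in skin. A rhythm is the joint F test of both terms of a 24 h wave in each group, and a difference in rhythm is an F test of their differences. The code was tested on simulated data. Gene coordinates are GENCODE M21 (GRCm38), and levels per kb use 1 coding transcript per gene. Exons of 12 of the genes overlap another gene (8 a protein coding one, such as Nek6 for Psmb7, Emc9 for Psme1 and Sirt3 for Psmd13), so their reads can be shared, as can those of Psme2 and Psme2b.

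The members, lists and tests were chosen with earlier results of these data known. Genes named in full are, for each effect, up to 6 past the threshold with the smallest p or else the 3 smallest, for each rhythmic group the 4 smallest p and any peak more than 6 h from the median, for each difference in rhythm the 2 smallest p, the immunoproteasome and activator pairs, and up to 2 genes past the threshold per outside list. Those lists hold 46 genes. Other genes were named after their values were seen. No columns were left unmapped, and alternatives are in the closing section.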

Additional observations from a re-analysis of the deposited data

Results flagged for a closer look

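Uchl5, a deubiquitinase that binds the cap of the proteasome and carries another symbol than the rule takes, had a rhythm in liver that differed between anti-Ly6G and IgG in limma's test of the difference (adjusted p = 0.045). It was the 1 gene of 12504 past that test. With IgG its fold was 1.08 (adjusted p = 0.478), and with anti-Ly6G it was 1.48 with a peak at 11.3 h (adjusted p = 3.3e-06). In gut Uchl5 peaked at 18.8 h with IgG and 20.7 h with anti-Ly6G, and that difference did not pass (adjusted p = 0.791).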

How the results depend on the processing

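Across other pseudocounts, filters, scaling, trend and hour settings, single-gene effects kept their direction and call in 431 of 502 repeats, lost the call in 70 and turned once (Psmb4 in iDTR, -0.10 at ZT 4, 5, 7, 9 and 12, a setting added after the data were seen). Single-gene rhythms kept their call in 695 of 817 and lost it in 122. With 1 hour, or in skin 1 window of hours, left out, the counts of proteasome genes were 1 to 11 for the bone marrow effect, 27 to 32 for iDTR and 0 to 3 for Bmal1-flox. Rhythm counts were 12 to 27 in gut IgG, 8 to 21 in gut anti-Ly6G, 12 to 18 in liver IgG, 12 to 19 in liver anti-Ly6G, 0 to 2 in lung IgG, 0 to 3 in lung anti-Ly6G, 0 to 7 in bone marrow anti-Ly6G and 1 to 4 in iDTR, and all other such counts stayed at 0. ZT as a factor gave 3 rhythmic genes in bone marrow anti-Ly6G and 0 in lung IgG. A mean of at least 4 gave 1 in lung anti-Ly6G and 8 in iDTR, and quantile normalization gave 1 in lung anti-Ly6G. The Bmal1-flox effect count was 0 at the 5 hours above. The cause of these changes was not tested. With a replicate block the counts were 0 in gut, 29 in iDTR and 2 in Bmal1-flox, as without it. Same-numbered gut libraries correlated at -0.221 to 0.184 (6 of 18 over 0.1) and skin libraries of the same ZT at -0.176 to 0.296 (11 of 46), so the numbers were not taken to pair them. A read was worth up to 0.131 units, so Psma8, Psmb11 and Psme2b rest on few reads in most tissues where they were low.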

Other observations

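Genes that serve the proteasome but carry other names were also tested for rhythms. In gut with IgG, 6 of 9 shuttle and unfoldase genes, 4 of 7 cap partners, 3 of 6 core assembly factors and 3 of 5 genes of proteasome transcription were rhythmic, where 33.6% of all genes were. Pomp, the maturation factor of the core, peaked at 15.7 h and Psmg2 at 15.2 h, within the hours of the proteasome genes. Zfand5, which binds ubiquitin and the cap, peaked at 23.6 h with a fold of 1.79. Nfe2l2 peaked at 13.6 h and Nfe2l1 at 0.174 h. In liver with IgG, 5 of 9 shuttle and unfoldase genes were rhythmic and 0 of 6 core assembly factors, where 42.9% of all genes were. Ubqln4 peaked at 16.2 h with a fold of 1.71 and Zfand5 at 0.479 h with 1.62, while Ecpas peaked at 4.37 h. In liver with anti-Ly6G, Rad23b and Ubqln1 peaked at 19.4 and 19.9 h with folds of 1.28 and 1.39. In iDTR skin, Uchl5 peaked at 22.4 h with a fold of 1.32.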
